A study of Mus musculus with 1479 samples.

Results

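The 8 genes described here encode the chains of the collagens that sit in or next to basement membranes: Col4a1 to Col4a6 for collagen IV, Col15a1 for collagen XV and Col18a1 for collagen XVIII. They were picked by gene name from a table of 46517 gene rows in 1479 single cells of the mouse urinary bladder, and all 8 had reads. The cells came from male mice of 10 to 20 weeks. They belonged to the reporter lines Acta2GFP, Cspg4dsRED, PdgfraGFP and PdgfrbGFP, which express a fluorescent reporter under control of the named gene, and to C57BL6, which carries no reporter and was sorted with antibodies. Cells were sorted by a reporter or, in C57BL6, by antibodies to PDGFRA or PDGFRB, and without the endothelial protein CD31, so that the gate for Acta2GFP and Cspg4dsRED could rest on those reporters. Each cell has a cluster label from 1 to 11. Cluster 10 is called mural here, for smooth muscle cells and pericytes, with 125 cells (Acta2GFP 12, C57BL6 3, Cspg4dsRED 65 and PdgfrbGFP 45). Cluster 5 is called sub-epithelial fibroblasts, with 76 cells (C57BL6 15, Cspg4dsRED 3, PdgfraGFP 22 and PdgfrbGFP 36). The remaining clusters are the other fibroblasts, with 1278 cells from all 5 lines. No animal is named in the labels, and crosses between the lines were also used, so that treating the 5 lines as separate samples is an assumption. The clusters were made from the same expression values, so every test below describes how far a difference repeated over lines and is no independent evidence for the clusters.

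Collagen IV is the network-forming collagen that, with laminin, gives a basement membrane its sheet structure. Its chains join as trimers inside the cell before secretion, and the genes lie head to head in pairs that are read outward from a shared start region. Collagens XV and XVIII are related proteoglycans of the basement membrane zone, and fragments cut from their ends, among them endostatin from collagen XVIII, are known for effects on vessel growth. In the bladder, basement membranes lie beneath the urothelium, around vessels and around each smooth muscle cell.

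The start regions of the head-to-head pairs are shown because each pair shares 1, and those of Col15a1 and Col18a1 because the mean levels of these genes had opposite orders in mural cells and other fibroblasts. Sequences were read from GRCm38, with start windows from RefSeq, which held 7 of the 8 members (none for Col4a3). Capitals mark matches to GGGCGG, known as the GC box, and to the CCAAT box. A search for the TATA box used the letters TATAAA. Each motif was searched on both strands, and none of them overlapped another match. Col4a1 (chr8:11198423-11312826, minus strand) and Col4a2 (chr8:11312805-11449287, plus strand) overlap by 22 bases of their first exons, chr8:11312805-11312826, plus strand.
Col4a1 and Col4a2: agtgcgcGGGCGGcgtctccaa
This stretch holds 1 GC box, which 4.09% of 32851 start windows hold in their first 22 bases. Col4a4 (chr1:82448423-82586849, minus strand) and Col4a3 (chr1:82586921-82722059, plus strand) are separated by 71 bases, chr1:82586850-82586920, given on the minus strand in the direction of Col4a4.
Col4a4 and Col4a3: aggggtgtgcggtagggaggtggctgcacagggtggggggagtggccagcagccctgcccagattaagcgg
None of the 3 motifs matched there, where the GC, CCAAT and TATA boxes match in 20.7%, 13.3% and 4.41% of windows of that length. Col4a6 (chrX:141165403-141474076, minus strand) and Col4a5 (chrX:141475385-141689234, plus strand) lie 1308 bases apart, a stretch not printed here. For Col15a1 (chr4:47208161-47313167, plus strand) the 250 bases before the RefSeq start are chr4:47207762-47208011, plus strand.
Col15a1: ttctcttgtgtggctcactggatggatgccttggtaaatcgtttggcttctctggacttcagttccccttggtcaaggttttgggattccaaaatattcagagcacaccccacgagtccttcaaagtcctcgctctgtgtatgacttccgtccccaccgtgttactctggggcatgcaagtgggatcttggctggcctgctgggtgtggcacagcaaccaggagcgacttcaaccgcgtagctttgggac
They hold no match, 8 CpG and 53.6% G or C. For Col18a1 (chr10:77052178-77166548, minus strand), which has 2 RefSeq starts, the 250 bases before the first are chr10:77166531-77166780, minus strand.
Col18a1: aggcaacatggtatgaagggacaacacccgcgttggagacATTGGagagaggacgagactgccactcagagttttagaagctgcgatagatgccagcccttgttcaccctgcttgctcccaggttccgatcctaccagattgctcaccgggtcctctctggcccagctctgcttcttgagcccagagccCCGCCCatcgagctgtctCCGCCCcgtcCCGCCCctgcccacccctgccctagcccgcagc
They hold 3 GC boxes, 1 CCAAT box, 12 CpG and 62.0% G or C, and the bases before the second start hold none of the 3 motifs. Among 32841 windows of 250 bases, 32.7% hold a GC box, 33.9% a CCAAT box and 12.4% a TATA box. A match is only a run of letters, and counts of whole genes do not tell which start a transcript used.

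Values are raw read counts from Smart-seq2, a full-length protocol without molecular identifiers. Total reads per cell ranged from 50276 to 1446059, with a median of 130406 in mural cells, 261652.5 in sub-epithelial and 222512.5 in other fibroblasts, and the median of genes with a read was 3188, 5245.5 and 4969.5. A level is the number of reads per 500000 reads of a cell's own genes, as the mean of the cells in a line, and errors are the SD between lines. Labels were checked against markers. The summed level of 9 mural genes was 8133 to 12820 over the mural lines, 435 to 752.5 in sub-epithelial and 64.5 to 169.6 in other fibroblasts. That of 6 sub-epithelial genes such as Tnc and Bmp5, which the study itself named for these cells, was 1120 to 3206 in cluster 5, 14.3 to 59.7 in mural cells and 40.4 to 139.8 in other fibroblasts, though single lines of clusters 3, 8 and 4 reached 586.4, 483.5 and 437.6. That of 6 fibroblast genes was 456.1 to 1949 in mural cells, 7234 to 21990 in sub-epithelial and 10830 to 15940 in other fibroblasts, and no gene of these lists was at 0 in its own class. The summed level of 5 visceral smooth muscle genes was 2047 to 4536 in mural lines, 193.6 to 292.5 in sub-epithelial and 99.4 to 132.7 in other fibroblasts, and as Myh11 stands in both lists, smooth muscle of vessels and of the bladder wall cannot be told apart from them in cluster 10. That of 8 endothelial genes was 13.9 to 232.1 in mural lines, where Emcn reached 216.3 in 1 line and Cdh5 at most 0.471, 12.1 to 63.0 in sub-epithelial and 38.0 to 60.6 in other fibroblasts. The part of either in the mural values of Col18a1, Col4a2, Lama5, Bcam and Itga7 was not tested. The mural list separated mural cells from both other classes. In single lines of clusters 8 and 4 it reached 657.1 and 408.6, the first of which lies within the sub-epithelial range. Fibroblast wells that shared a plate row or column with 5 or more mural cells had a mean Acta2 level of 97.5, against 39.6 with none. The part of reads from other wells in the results below was not tested beyond leaving such wells out.

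In the mural class Col15a1 was nearly absent and Col18a1 was second to Col4a2 per kilobase, or first without the 3 C57BL6 cells, while other fibroblasts expressed Col15a1 at about the level of the main collagen IV chains. Sub-epithelial fibroblasts had the highest Col4a1 level of the 3 classes. Of the 8 members, only Col15a1 passed the test in mural cells against other fibroblasts. There 7.84% of the 14251 genes tested were called, 2.18% as higher and 5.66% as lower in mural cells. None passed in sub-epithelial against other fibroblasts, where 1.14% were called (0.337% higher and 0.807% lower), or in mural cells against sub-epithelial fibroblasts, where 4.67% were called (2.3% higher and 2.36% lower). These calls used edgeR's quasi-likelihood test with Benjamini-Hochberg adjustment over all genes, at an adjusted p under 0.05. At an unadjusted p under 0.05 the last 2 comparisons held 3 members each (Col4a1, Col4a4 and Col15a1, then Col4a1, Col15a1 and Col18a1), where 11.7% and 16.1% of all genes were under it, and DESeq2 called 3 (Col4a3, Col4a4 and Col15a1) and 0, beside 7.89% and 14.1% of all genes. The scaling sets where 0 lies: the median gene was at a log2 fold change of -0.66 in mural against other fibroblasts, and at -0.38 with median-of-ratios scaling and -1.43 with spike-in scaling. Higher calls made up 27.8% of all calls there, 50.7% with the median gene set to 0 and 11.6% with spike-in scaling. In sub-epithelial against other fibroblasts the share was 29.4%, and 57.9% with the median gene set to 0. In mural against sub-epithelial it was 49.3%, and 27.9% with spike-in scaling.

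**Figure D1:**
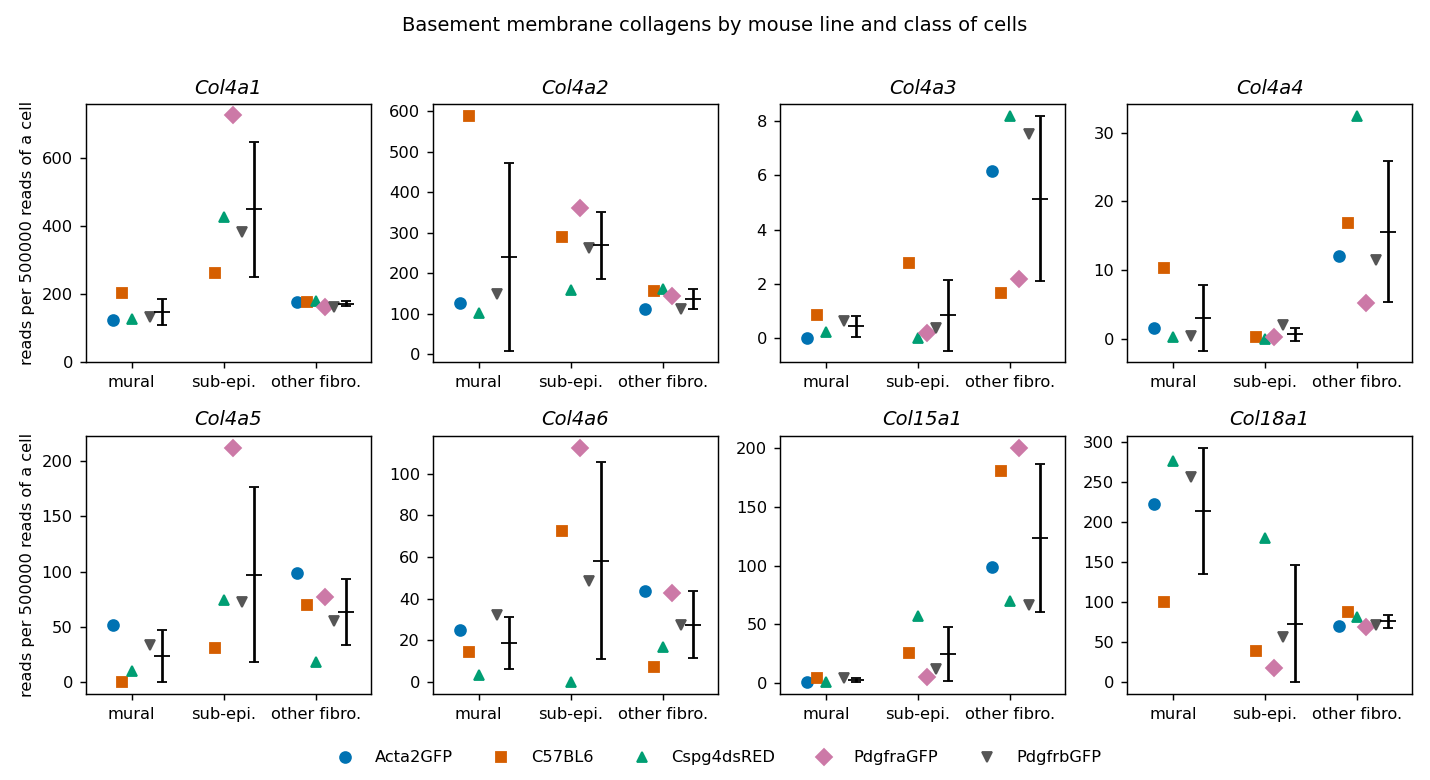
Level of each gene (reads per 500000 reads of a cell, linear axis, own scale per panel) in mural cells, sub-epithelial fibroblasts and other fibroblasts, with 1 symbol for each mouse line and a bar for the mean ± SD over lines. Col15a1 lies at or under 4.11 in every mural line and at or above 66.5 in every line of other fibroblasts.

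**Figure D2:**
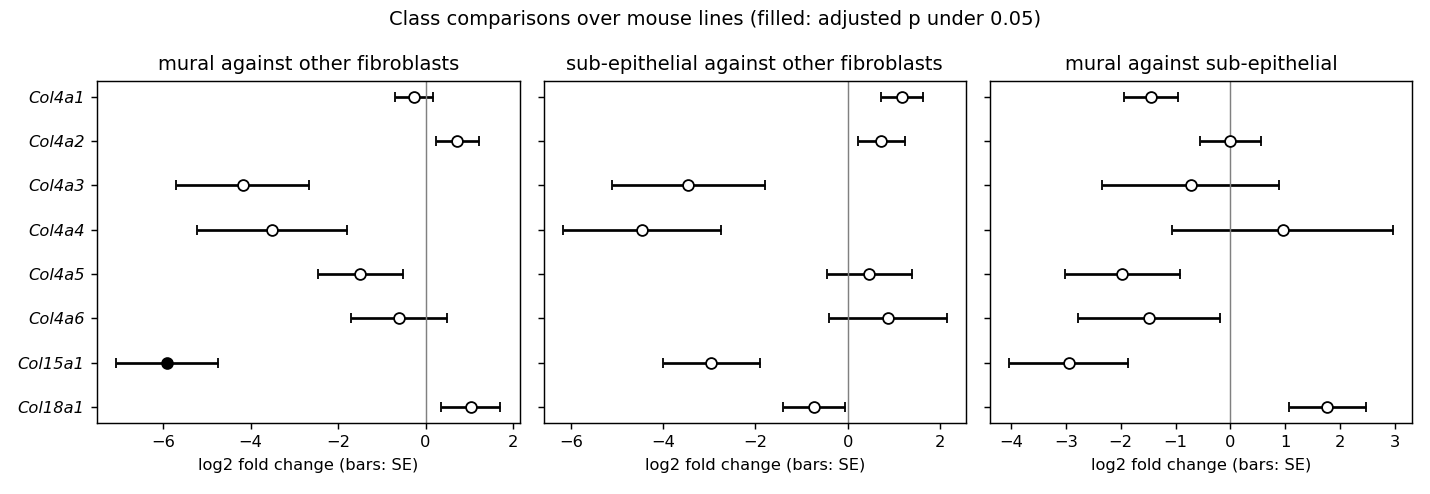
Log2 fold change of each gene in the 3 class comparisons, with bars of 1 SE from edgeR's quasi-likelihood fit over mouse lines, filled where the adjusted p is under 0.05. Only Col15a1 in mural cells against other fibroblasts (-5.91) is filled.

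Col15a1, the collagen XV chain, separated the classes most clearly. In mural cells its level was 0.949 in Acta2GFP, 3.62 in C57BL6, 0.422 in Cspg4dsRED and 4.11 in PdgfrbGFP (2.28 ± 1.86, SD, n = 4 lines), from 101 reads in 125 cells. In other fibroblasts it was 66.5 in PdgfrbGFP, 69.8 in Cspg4dsRED, 98.5 in Acta2GFP, 180.6 in C57BL6 and 200.7 in PdgfraGFP (123.2 ± 63.2, n = 5). The groups did not overlap, as held for 18.7% of all genes, and mural cells were lower in 4 of 4 lines and in 7 of 7 pairs of a plate and a line. Col15a1 fell by 5.91 ± 1.16 (SE) on the log2 scale in mural cells, 60.2-fold, at an adjusted p of 0.00393. The call was kept under all 17 alternatives that refit this gene, with values from -7.05 to -5.20 and adjusted p from 5.094e-07 to 0.0402. Sub-epithelial fibroblasts lay between the 2: 25.0 in C57BL6, 56.7 in Cspg4dsRED (3 cells), 4.98 in PdgfraGFP and 12.1 in PdgfrbGFP (24.7 ± 22.9). All 4 lines were under every line of other fibroblasts, a pattern that 9.7% of genes had in 1 direction or the other. The log2 difference was -2.96 ± 1.06 at an adjusted p of 0.198, with 0.0126 to 0.628 over alternatives. Mural cells against sub-epithelial fibroblasts gave -2.95 ± 1.08 (adjusted p = 0.153), with no overlap, which 8.97% of genes showed. Within plates and lines with at least 3 cells, mural levels ran from 0.25 to 6.54, sub-epithelial levels from 0 to 25.0 and those of other fibroblasts from 56.8 to 250.4. Mural cells were lower than sub-epithelial fibroblasts in 3 of 4 such pairs and higher in 1, a PdgfrbGFP plate with 1.59 in mural cells and 0 in 5 sub-epithelial cells.

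Col18a1, which encodes the precursor of endostatin, was at a higher mean level in mural cells than in other fibroblasts, where Col15a1 was lower. Its mural level was 222.5 in Acta2GFP, 100.3 in C57BL6, 276.6 in Cspg4dsRED and 257.1 in PdgfrbGFP (214.1 ± 79.1). In other fibroblasts it was 69.9, 87.9, 81.7, 69.3 and 71.3 in Acta2GFP, C57BL6, Cspg4dsRED, PdgfraGFP and PdgfrbGFP (76.0 ± 8.34). Every mural line was above every line of other fibroblasts, where the groups did not overlap for 18.7% of all genes. The lowest mural value came from the 3 C57BL6 cells, 1 of which held 98.55% of these reads. Within C57BL6, fibroblast clusters 2 (152.2), 3 (128.5) and 11 (146.6) lay above that mural value. The other C57BL6 fibroblast clusters lay under it, at 9.10 to 66.9. All 7 pairs of a plate and a line were higher in mural cells, from 100.3 against 87.9 to 373.7 against 70.9. The difference did not pass the test, at a log2 value of 1.03 ± 0.68 and an adjusted p of 0.471. It was positive under all 17 alternatives, from 0.14 with spike-in scaling to 1.69 with the median gene set to 0, and passed only with sums per plate and line (1.5, adjusted p = 0.00872, of a range up to 0.936). In sub-epithelial fibroblasts the level was 17.1 in PdgfraGFP, 38.2 in C57BL6, 56.7 in PdgfrbGFP and 180.5 in the 3 Cspg4dsRED cells (73.1 ± 73.4), which overlapped both other classes. The log2 difference from other fibroblasts was -0.73 ± 0.67 (adjusted p = 0.882) and that of mural cells from sub-epithelial fibroblasts 1.77 ± 0.70 (adjusted p = 0.196). Set against each other, Col15a1 had 0.00895 reads per Col18a1 read in mural cells, 0.346 in sub-epithelial and 1.56 in other fibroblasts (geometric means over lines).

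**Figure D3:**
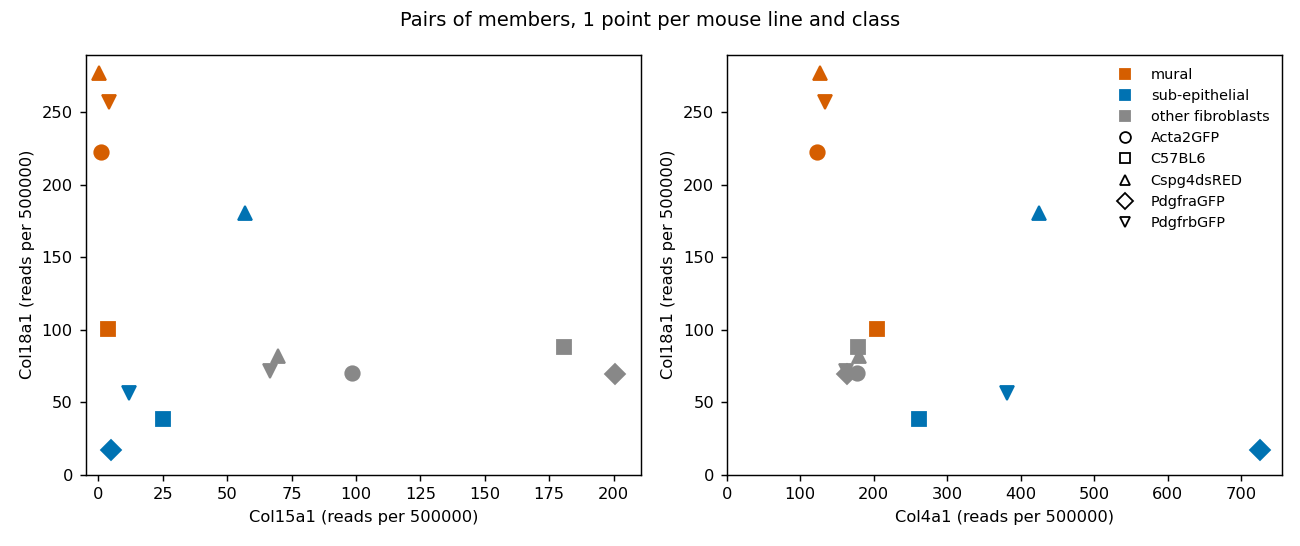
Col18a1 level against Col15a1 level (left) and Col4a1 level (right), in reads per 500000 reads of a cell on linear axes, with 1 point for each mouse line and class, colored by class and shaped by line. Mural points stand at the left edge of the first panel between 100.3 and 276.6 for Col18a1, and sub-epithelial points reach 726.2 for Col4a1.

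Col4a1 and Col4a2 encode the chains of the collagen IV found in nearly every basement membrane, and they were the main collagen IV transcripts in all 3 classes. Col4a1 was at 261.6 in C57BL6, 425.4 in Cspg4dsRED (3 cells), 726.2 in PdgfraGFP and 381.8 in PdgfrbGFP among sub-epithelial fibroblasts (448.8 ± 197.5). In other fibroblasts it was at 177.2, 178.2, 179.8, 163.9 and 162.9 in Acta2GFP, C57BL6, Cspg4dsRED, PdgfraGFP and PdgfrbGFP (172.4 ± 8.28), the smallest spread between lines, relative to the mean, of any member and class. In mural cells it was at 123.4 in Acta2GFP, 203.9 in C57BL6 (98.6% of its reads from 1 cell), 126.3 in Cspg4dsRED and 133.4 in PdgfrbGFP (146.8 ± 38.3). The sub-epithelial values did not overlap those of either other class, as held for 9.7% of all genes against other fibroblasts and 8.97% against mural cells. The log2 difference of sub-epithelial from other fibroblasts was 1.18 ± 0.45, higher in 4 of 4 lines and 5 of 5 plate and line pairs, yet at an adjusted p of 0.243 it did not pass. Over the alternatives the value ran from 0.80 without PdgfraGFP to 1.79 and the adjusted p from 0.0352, with sums per plate and line, to 0.824. Mural cells against sub-epithelial fibroblasts gave -1.45 ± 0.48 (adjusted p = 0.110), and mural cells against other fibroblasts gave -0.26 ± 0.43 (adjusted p = 0.842), a value that turned positive under 3 alternatives, among them the median gene set to 0 (0.40).

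Col4a2 was less even between lines than Col4a1. In mural cells it was at 125.6 in Acta2GFP, 588.0 in the 3 C57BL6 cells (1 of which held 87% of these reads), 101.3 in Cspg4dsRED and 148.9 in PdgfrbGFP (240.9 ± 232.2), in other fibroblasts at 111.4 to 162.2 (137.1 ± 24.3) and in sub-epithelial fibroblasts at 159.8 in Cspg4dsRED, 263.3 in PdgfrbGFP, 289.8 in C57BL6 and 361.7 in PdgfraGFP (268.6 ± 83.6). All 3 classes overlapped. The log2 differences were 0.72 ± 0.50 for mural against other fibroblasts (adjusted p = 0.497; -0.17 with spike-in scaling) and 0.73 ± 0.51 for sub-epithelial against other fibroblasts (adjusted p = 0.752). The ratio of Col4a1 to Col4a2 reads was compared because the chains enter 1 trimer in a fixed proportion. It was 0.593 in Acta2GFP, 0.253 in C57BL6, 1.10 in Cspg4dsRED and 0.948 in PdgfrbGFP among mural cells and between 1.01 and 1.93 among other fibroblasts. The log2 ratio was lower in mural cells in 3 of 4 lines, by -1.05 on average (SD 0.99, n = 4), with p = 0.25 in an exact two-sided sign-flip permutation test, whose smallest possible p with 4 lines is 0.125. In sub-epithelial fibroblasts the ratio ran from 0.854 to 3.03.

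Col4a3 and Col4a4, whose chains join that of Col4a5 in the collagen IV of kidney glomeruli and some other sites, were at the lowest levels of the family. Col4a3 had 18 reads in all mural cells, 49 in sub-epithelial fibroblasts and 4264 in other fibroblasts. Its level was 0, 0.873, 0.238 and 0.661 in the mural lines Acta2GFP, C57BL6, Cspg4dsRED and PdgfrbGFP, and 1.67 to 8.17 in other fibroblasts (5.14 ± 3.03). Every mural line was under every line of other fibroblasts, where 18.7% of all genes did not overlap in 1 direction or the other. The log2 difference of -4.19 ± 1.52 did not pass (adjusted p = 0.107, with 0.0113 to 0.998 over alternatives). An opposite-strand transcript, C430014B12Rik, overlaps Col4a3 exons and had 5426 reads, more than the 4331 of Col4a3 itself. Reads of the 2 cannot be told apart, as the counting is not stated to use strand. The mean C430014B12Rik level was 5.85 in mural cells, 4.5 in sub-epithelial and 4.76 in other fibroblasts, another order than that of Col4a3. Col4a4 was at 1.52 in Acta2GFP, 10.2 in C57BL6, 0.196 in Cspg4dsRED and 0.369 in PdgfrbGFP among mural cells and at 5.17 to 32.4 in other fibroblasts (15.6 ± 10.3), with a log2 difference of -3.51 ± 1.72 (adjusted p = 0.276). Sub-epithelial Col4a4 levels of 0 to 2.03 lay under all lines of other fibroblasts, where 9.7% of all genes did not overlap in 1 direction or the other. The log2 difference was -4.47 ± 1.72 (adjusted p = 0.253), and Col4a3 gave -3.46 ± 1.67 (adjusted p = 0.438). In sub-epithelial fibroblasts 1 cell held 77.6% of the Col4a3 reads and 1 cell 74.6% of the Col4a4 reads, so these levels rest on few cells.

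Col4a5 and Col4a6 form a further kind of collagen IV, known from smooth muscle and from the basement membrane beneath several epithelia. Col4a5 was at 51.7 in Acta2GFP, 0 in C57BL6, 9.92 in Cspg4dsRED and 33.3 in PdgfrbGFP among mural cells, at 18.5 to 99.1 in other fibroblasts and at 30.8 to 212.2 in sub-epithelial fibroblasts. Mural cells were lower in 4 of 4 lines and 7 of 7 plate and line pairs, but the groups overlapped and the log2 difference of -1.50 ± 0.97 did not pass (adjusted p = 0.465). Against sub-epithelial fibroblasts mural cells differed by -1.97 ± 1.05 (adjusted p = 0.394). Col4a6 was at 25.1, 14.6, 3.44 and 32.0 in the mural lines Acta2GFP, C57BL6, Cspg4dsRED and PdgfrbGFP, at 7.16 to 43.8 in other fibroblasts and at 0 to 112.4 in sub-epithelial fibroblasts. Both classes were on either side of other fibroblasts depending on the line. The log2 difference was -0.61 ± 1.10 for mural (adjusted p = 0.864) and 0.87 ± 1.29 for sub-epithelial against other fibroblasts (adjusted p = 0.973), and both changed sign under some alternatives. The highest sub-epithelial values of both genes came from PdgfraGFP, the line that also had the highest Col4a1 value.

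Levels of different genes were compared per kilobase of exon. In mural cells the order was Col4a2 (36.4 ± 35.1), Col18a1 (30.5 ± 11.3), Col4a1 (19.7 ± 5.14), Col4a5 (3.53 ± 3.47), Col4a6 (2.36 ± 1.57), Col15a1 (0.358 ± 0.293), Col4a4 (0.290 ± 0.453) and Col4a3 (0.0444 ± 0.0397) reads per kilobase and 500000 reads. The first place of Col4a2 rested on the 3 C57BL6 cells, 1 of which held 87% of their Col4a2 reads: without that line Col4a2 was at 18.9 ± 3.60 and Col18a1 at 35.9 ± 3.90 (n = 3 lines). Neighbors in the order over 4 lines differed by more than their spread at 2 steps, from Col4a1 to Col4a5 and from Col4a6 to Col15a1. In sub-epithelial fibroblasts Col4a1 led at 60.1 ± 26.5, followed by Col4a2 at 40.6 ± 12.6 and Col4a5 at 14.5 ± 11.8, with Col18a1 at 10.4 ± 10.5, Col4a6 at 7.31 ± 5.89 and Col15a1 at 3.89 ± 3.61. Col4a3 (0.0849 ± 0.130) and Col4a4 (0.0611 ± 0.0879) came last. Neighbors in this order lay within a spread of each other, except Col4a2 and Col4a5, and Col15a1 and Col4a3. In other fibroblasts Col4a1 (23.1 ± 1.11), Col4a2 (20.7 ± 3.67) and Col15a1 (19.4 ± 9.96) overlapped, and after them came Col18a1 (10.8 ± 1.19), Col4a5 (9.51 ± 4.45), Col4a6 (3.46 ± 2.01), Col4a4 (1.47 ± 0.968) and Col4a3 (0.516 ± 0.304), where only Col4a5 and Col4a6 differed by more than the spread of either neighbor.

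To compare shares of cells with a read, every cell was randomly thinned to 50000 reads, which left out 6 other fibroblasts that were shallower. Intervals are exact Clopper-Pearson 95% intervals and cover counting error only. The cells of a class are pooled over lines of unequal size and are not replicates, so the shares describe these cells and no difference between classes is read from their intervals. Col15a1 was seen in 16% of mural cells (10.1% to 23.6%), 39.5% of sub-epithelial (28.4% to 51.4%) and 66.5% of other fibroblasts (63.8% to 69.1%), and without thinning in 28.0%, 68.4% and 83.2%. Col18a1 was seen in 72% of mural cells (63.3% to 79.7%), 42.1% of sub-epithelial (30.9% to 54.0%) and 55% of other fibroblasts (52.2% to 57.8%), and without thinning in 80.8%, 65.8% and 74.8%. Col4a1 was seen in 54.4% of mural cells, 97.4% of sub-epithelial and 82.2% of other fibroblasts (68.0%, 98.7% and 89.9% without thinning). The Col4a2 shares were 59.2%, 94.7% and 76.1% (68.0%, 96.1% and 87.7%). For Col4a2 the mural share was the lower although the mural mean level was the higher, so no order is read from it. Col4a3 and Col4a4 were seen in 3.2% and 4.8% of mural cells, 2.63% and 2.63% of sub-epithelial and 10.3% and 13% of other fibroblasts (8.0% and 8.0%, 10.5% and 18.4%, 18.6% and 21.9% without thinning). Col4a5 and Col4a6 were seen in 21.6% and 17.6% of mural cells, 57.9% and 40.8% of sub-epithelial and 49.6% and 25.8% of other fibroblasts (35.2% and 24%, 75.0% and 52.6%, 67.8% and 41.5%).

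**Figure D4:**
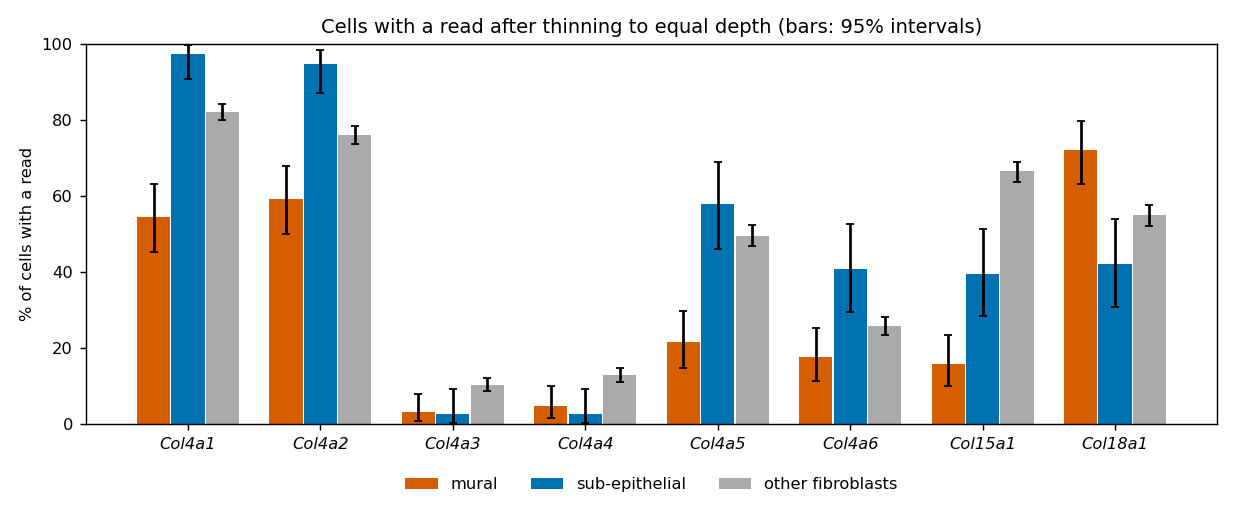
Percent of cells with at least 1 read of each gene after thinning each cell to 50000 reads, by class, with exact 95% binomial intervals; bars start at 0. Col15a1 is at 16% of mural cells and 66.5% of other fibroblasts, and Col18a1 is the only gene that is highest in mural cells.

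Over all cells thinned to equal depth and pooled, a read of 1 gene of a head-to-head pair was more frequent with a read of its partner than without. Of cells with a Col4a3 read 36.5% (28.4% to 45.1%) had a Col4a4 read, against 9.21% (7.71% to 10.9%) of cells without. For Col4a6 the shares were 34.6% with and 17.9% without a Col4a5 read, and for Col4a2 79.9% with and 57.7% without a Col4a1 read. For Col15a1 and Col18a1, which lie on different chromosomes, they were 57.1% and 53.7%. These are descriptions over all 1473 thinned cells, which pool clusters, lines and plates. Within cluster 8 alone 52.6% of cells with and 21.5% of cells without a Col4a3 read had a Col4a4 read. Other fibroblasts kept this order in all 3 pairs. Their shares were 38.2% against 10.1% for Col4a4, 34.2% against 17.5% for Col4a6 and 79.6% against 59.9% for Col4a2. Sub-epithelial fibroblasts kept it in none, with 0% against 2.7%, 38.6% against 43.8% and 94.6% against 100%. Mural cells kept it for Col4a6 (37% against 12.2%) and Col4a2 (69.1% against 47.4%), not Col4a4 (0% against 4.96%). Only 2 sub-epithelial and 4 mural cells had a Col4a3 read. Over 43 sums of a line and a cluster, which share lines, plates and depth, Pearson's r of log2 levels between members ran from -0.142 to 0.466. It was 0.466 for Col4a5 and Col4a6, 0.448 for Col4a3 and Col4a4 and 0.327 for Col4a1 and Col4a2. Members that are not neighbors reached similar values, with 0.403 for Col4a3 and Col4a6, 0.397 for Col4a1 and Col4a5, 0.355 for Col15a1 and Col4a5 and 0.327 for Col4a2 and Col18a1, and Col15a1 and Col18a1 had 0.0504.

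Among the 9 other fibroblast clusters no member passed the test of all cluster terms together, in which 2.54% of 14776 genes were called by edgeR's quasi-likelihood test, and 1 member, Col4a4, was under 0.05 unadjusted, as were 15.1% of all genes. Its F was 4.23 and its adjusted p 0.0504, while the other 7 had adjusted p from 0.497 to 0.981. DESeq2, which called 6.08% of all genes there, called Col4a4 (adjusted p = 0.00032, of a range of 0.00032 to 0.300 over alternatives). With each cluster against the mean of the other 8, 1 of 72 pairs of a member and a cluster was called, Col4a4 in cluster 8, against 0.626% of the 132984 tests of all genes in the 9 contrasts and 1.02% of genes in cluster 8. In the other contrasts the share of genes called was 2.48%, 1.29% and 0.65% in clusters 2, 7 and 4, and 0.0947%, 0.0609%, 0.0203%, 0.0135% and 0.0135% in clusters 9, 6, 1, 3 and 11. Col4a4 in cluster 8 was at 9.21 in PdgfraGFP, 29.7 in PdgfrbGFP, 35.8 in Acta2GFP, 118.5 in C57BL6 and 184.0 in Cspg4dsRED (75.4 ± 73.6, n = 5). In PdgfraGFP all 72 reads came from 1 cell, whereas in PdgfrbGFP 41 of 120 cells had a read. Col4a4 rose in cluster 8 by 4.79 on the log2 scale, 27.8-fold (adjusted p = 0.00955). The call was lost without C57BL6 (4.01, adjusted p = 0.135), without Cspg4dsRED (5.29, adjusted p = 0.0594) or without PdgfrbGFP (5.46, adjusted p = 0.168), and held with DESeq2 and with thinned cells, within a range of adjusted p from 0.00071. After thinning 28.0% of cluster 8 cells had a Col4a4 read (21.6% to 35.1%; 34.1% without thinning), and 20.9% had a Col4a3 read (15.2% to 27.5%; 31.9%). In cluster 6 the Col4a4 share was 17.6% (12.5% to 23.9%; 33.5% without thinning). Col4a3 in cluster 8, at 4.82, 6.61, 50.5, 0 and 21 in Acta2GFP, C57BL6, Cspg4dsRED, PdgfraGFP and PdgfrbGFP, did not pass (3.40, adjusted p = 0.274). Summed Schwann cell markers were at 0.282 to 78.4 in cluster 8 and 19.8 to 39.7 in all other fibroblasts, and summed endothelial markers at 15.7 to 87.8. Summed mural markers were at 62.54 to 657.1 in cluster 8 and 64.45 to 169.6 in all other fibroblasts. Summed sub-epithelial markers were at 41.8 to 483.5 in cluster 8 and 40.36 to 139.8 in all other fibroblasts. The part of any of these cell types in the Col4a4 value was not tested.

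The other members varied between fibroblast clusters without passing. Col4a6 in cluster 7 was at 184.1, 17.7, 6.94, 83.1 and 58.6 in Acta2GFP, C57BL6, Cspg4dsRED, PdgfraGFP and PdgfrbGFP (70.1 ± 70.8), a log2 difference of 2.35 (adjusted p = 0.233), and 42.1% of thinned cells there had a read (35.6% to 48.8%; 56.3% without thinning). The same cluster had the lowest mean level of Col4a1 (89.6 ± 57.8; -1.05, adjusted p = 0.256) and of Col4a2 (65.3 ± 35.6; -1.11, adjusted p = 0.325) of all 11 clusters. The Col4a6 mean of cluster 7 rested on the 9 Acta2GFP cells, and without them it was 41.6 ± 35.5, under the 58.3 ± 47.0 of cluster 5. Cluster 4, with 23 cells, had 5 Col4a5 and 3 Col4a6 reads in all. After thinning 0 of 21 cells had a read of either, which allows a share of up to 14.3% at 3 cells of the total, or 16.1% by the exact interval (8.7% and 13% without thinning). The fitted differences were -5.42 (adjusted p = 0.155) and -4.52 (adjusted p = 0.474). Col15a1 in cluster 4 was seen in 5 of 23 cells, 1 of which held 54.0% of the reads, so its mean of 169.3 ± 239.4 over 2 lines rests on few cells. Among the 8 remaining fibroblast clusters Col15a1 means were highest in cluster 6 (207.6 ± 103.0) and cluster 3 (194.5 ± 154.2) and lowest in cluster 8 (67.8 ± 35.6) and cluster 7 (68.6 ± 33.1). Col18a1 means ran from 30.3 ± 29.9 in cluster 9 to 165.9 ± 26.0 in cluster 4, and Col4a1 means outside cluster 7 from 144.2 ± 66.4 in cluster 2 to 240.5 ± 58.9 in cluster 6.

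**Figure D5:**
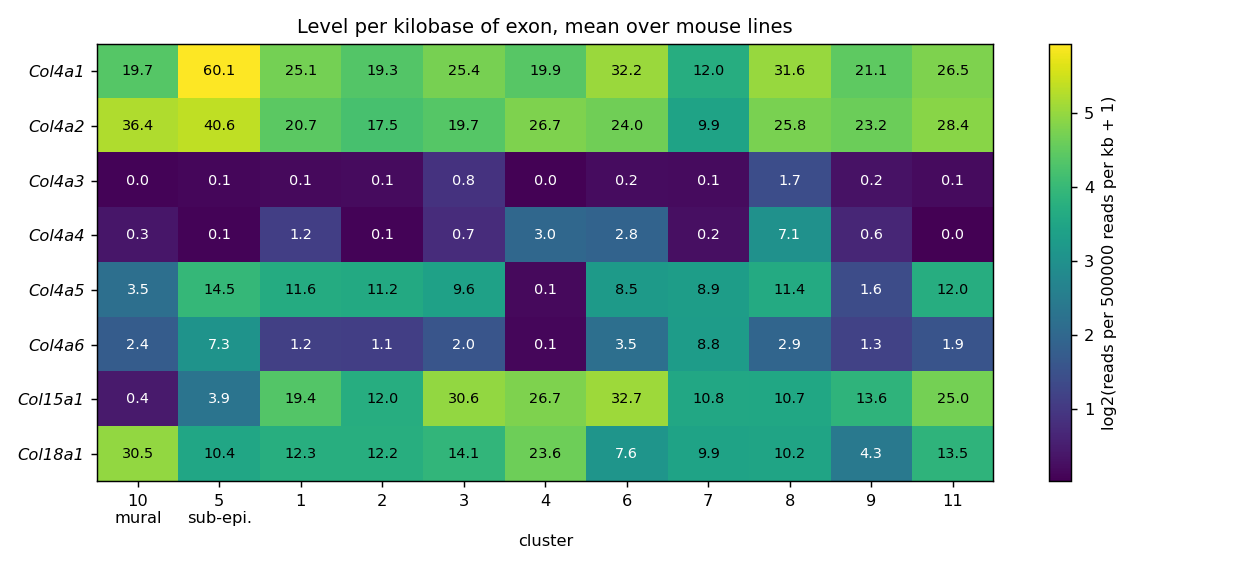
Level of each gene in each of the 11 clusters, in reads per kilobase of exon and 500000 reads, as the mean over mouse lines with at least 3 cells; the printed numbers are the levels and the color is log2(level + 1). Col4a1 peaks in cluster 5 (60.1), Col15a1 is lowest in cluster 10 (0.4) and Col4a4 is highest in cluster 8 (7.1).

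Partners of these collagens were read from 4 lists of genes. Of all genes, 7.84% were called in mural against other fibroblasts, 1.14% in sub-epithelial against other fibroblasts and 4.67% in mural against sub-epithelial. Of 16 laminins, nidogens and other components tested, 3 were called higher and 8 lower in mural against other fibroblasts. Their median log2 fold change was -1.46 beside -0.66 for all genes. Lama5, the laminin alpha chain of mature vessel walls and epithelia, rose to 158.0 to 785.2 in the mural lines from 0.125 to 0.357 in other fibroblasts (log2 10.07 ± 0.91, adjusted p = 2.264e-06). Npnt, an integrin ligand of the basement membrane, also rose (0 to 75.9 against 0.00557 to 2.18, adjusted p = 0.0453), a call lost in 10 of 17 alternatives. Nid2, which links laminin and collagen IV networks, fell (0.0339 to 1.28 against 24.8 to 47.7, adjusted p = 0.0146), a call lost in 3 alternatives. Lama1, Lama3, Lamb3 and Egfl6 were too low to be tested. In sub-epithelial against other fibroblasts 0 of the 16 were called, with a median of -0.42 beside -0.60 for all genes, and in mural against sub-epithelial 1 was higher and 3 were lower (median -0.75 beside 0.04).

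Of 21 genes for folding, modifying, secreting and cross-linking collagen, 1 was called higher and 4 lower in mural cells, with a median of -1.73. In mural against other fibroblasts 7.84% of all genes were called, with a median of -0.66. P3h2, a prolyl 3-hydroxylase that acts on collagen IV, rose (42.6 to 149.6 against 0.0943 to 0.867; log2 8.53 ± 1.45, adjusted p = 0.00108). Its relative P3h3 fell (0.801 to 6.60 against 56.3 to 75.5; adjusted p = 0.00596), as did the collagen chaperone gene Serpinh1 (30.7 to 103.1 against 175.2 to 443.1; -2.06 ± 0.45, adjusted p = 0.00911) and the glycosyltransferase gene Colgalt2 (0 to 0.127 against 1.47 to 6.50; adjusted p = 0.0266). These 3 calls were lost in 1, 3 and 6 of 17 alternatives. In sub-epithelial fibroblasts Colgalt2 had no read and was the only called gene of the 21 (adjusted p = 0.0433, lost in 11 alternatives), and in mural against sub-epithelial 1 was higher and 3 were lower. Those comparisons called 1.14% and 4.67% of all genes.

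Of 16 receptors of collagen IV and basement membranes, 3 were called higher and 1 lower in mural cells, with a median of 0.54. Mural against other fibroblasts called 7.84% of all genes, with a median of -0.66. Itga7, a laminin-binding integrin of muscle, rose (65.8 to 316.5 against 0 to 4.80; log2 9.75 ± 1.33, adjusted p = 0.000137). Bcam, a receptor for the laminin chain of Lama5, rose (587.4 to 1548 against 3.84 to 22; 7.08 ± 0.73, adjusted p = 7.668e-06), and Itga1, whose integrin binds collagen IV, rose (16.8 to 202.9 against 0.221 to 5.98; 4.81 ± 1.13, adjusted p = 0.0151, lost in 2 alternatives). Itga11, an integrin chain for fibrillar collagen, fell (0 to 1.03 against 21.4 to 35.4; -5.68 ± 0.94, adjusted p = 0.000891) and was the only receptor called in sub-epithelial fibroblasts, where it rose (87.2 to 874.4; 3.36 ± 0.80, adjusted p = 0.0494, lost in 5 alternatives). Of the receptors 2 were higher and 1 lower in mural against sub-epithelial, where 4.67% of all genes were called. Sub-epithelial against other fibroblasts called 1.14% of all genes. Adgrg6 was too low to be tested.

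Of 6 proteases tested that cut basement membrane collagens, 5 were called lower in mural cells and 0 higher, with a median of -3.35, and 7 were not tested. Mural against other fibroblasts called 7.84% of all genes, 5.66% as lower, with a median of -0.66. Mmp2, the gelatinase that also cuts collagen IV, was at 10.5 to 47.3 in mural lines against 830.3 to 1507 (-5.51 ± 0.46, adjusted p = 7.509e-07). Mmp14, which activates the product of Mmp2, was at 6.90 to 97.3 against 324.9 to 635.0 (-2.97 ± 0.55, adjusted p = 0.00257). Bmp1 (adjusted p = 0.0485) and Mmp3 (adjusted p = 0.0355) were called less firmly, with the call lost in 5 of 17 and 8 of 16 alternatives. None of the 6 was called in sub-epithelial against other fibroblasts, and 2 were lower in mural against sub-epithelial. Those comparisons called 1.14% and 4.67% of all genes. The calls of Lama5, P3h2, Itga7, Bcam, Itga11, Mmp2 and Mmp14 in mural cells were kept under all 17 alternatives. The clusters were made from all genes, these included.

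The genes whose log2 level followed that of a member most closely were taken over the same 43 sums and 15120 genes. For Col15a1 they were Col14a1 (r = 0.848), Pmp22 (0.823) and Pi16 (0.819), and for Col18a1 Pacsin2 (0.687), Mdh2 (0.684) and Eif3a (0.681). For Col4a1 they were Pced1a (0.621), Prelp (0.611) and Frmd6 (0.585), and for Col4a2 Sept9 (0.699), Csrp1 (0.595) and Osmr (0.591). For Col4a3 they were Msc (0.714), Gm9947 (0.665) and Adamts8 (0.654), and for Col4a4 Angptl7 (0.663), A830012C17Rik (0.638) and Gm42922 (0.634). For Col4a5 they were Zfp275 (0.814), Uqcrc2 (0.748) and Armh4 (0.746), and for Col4a6 B4galt7 (0.811), Wapl (0.758) and Ecpas (0.752). Collagen XV thus had the closest follower of the 8, the fibril-associated collagen gene Col14a1, and no member was among another's 3 closest. Across sums such likeness also reflects class, depth and line, as the 43 sums include mural and sub-epithelial cells. The values are the highest found among 15120 genes.

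Transcripts annotated over a member on the opposite strand bear on its reads. Gm12426, which overlaps a Col15a1 exon and spans the printed start region, had 1121 reads, with 0 in mural cells and 1116 in other fibroblasts, the same order as Col15a1. Gm15419, over Col4a2 exons, had 868 reads, and Slc19a1, which overlaps Col18a1 without sharing exons, had 10042. Gm15418 over Col4a1 had 5, Gm15282 over Col4a5 had 1, and Gm15079 and Gm15078 over Col4a6 had 3 and 0. Apart from C430014B12Rik beside Col4a3 and the shared bases of Col4a1 and Col4a2, those sharing an exon held at most 1121 reads beside 68235 or more for their member.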

How the data were processed

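Per the labels and the study's methods, bladders were dissociated with an enzyme kit plus collagenase, single cells were sorted into 384-well plates (6 plates) and Smart-seq2 libraries were made with spike-in RNA. The authors trimmed reads, mapped them to GRCm38 with TopHat2 on Bowtie, removed what the methods call doublets with samtools and counted reads per gene with featureCounts; the annotation release and strand setting are not given in the sources used here. They also removed cells with few reads, few or very many genes, or a high share of spike-in or mitochondrial reads, cells without Pdgfra and Pdgfrb, and cells whose transcriptome looked contaminated, for example by endothelial or immune cells. The deposited values are raw counts, 46517 genes and 92 spike-ins in 1479 cells, with 0 columns left without a sample. No doublet caller was run here. Symbols and exon lengths came from GENCODE M21, which held 46005 of the identifiers.

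Counts were summed per mouse line and class or cluster with at least 3 cells and tested with edgeR 4.0.16 (R 4.3.3; TMM scaling, filterByExpr, quasi-likelihood test, Benjamini-Hochberg over all genes tested), with a block for the line, whose sums share mice and plates. The script was tested on simulated data. Alternatives used DESeq2 1.42.0 and limma 3.58.1 (log2 with a pseudocount of 1), other scalings, no filter, thinned cells, sums per plate and line, fibroblasts with no mural cell in their row or column (524 of 1354), a fold rule of at least 2 on the log2 scale, and leaving out lines and clusters. Levels, shares and the permutation test used Python 3.11.15, numpy 2.4.6, scipy 1.17.1 and pandas 2.3.3. Reads are not independent molecules, so intervals cover counting error only. The most reads per exon base of a member in a cell was 0.186.

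Named genes are the 8 members, up to 4 called genes with the largest fold change per list in each comparison with other fibroblasts, the 3 genes most correlated with each member, and genes on the opposite strand over a member; some genes that the rule or the marker lists hold are not reported here. The members and lists were chosen with earlier results of these data known.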

Additional observations from a re-analysis of the deposited data

Results flagged for a closer look

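In groups of 4 or 5 mouse lines, a value was picked out where its gap to the nearest line exceeded Dixon's 95% critical share of the group's range. This picked 14 of 72 groups of a member and a class or cluster, all of them a highest value. Dixon's critical share assumes independent values with a normal distribution. Levels here cannot be negative and often rest on few cells, and the groups share lines and cells. The number picked can therefore not be set against a rate expected by chance. Groups of fewer lines were not examined. The causes were not tested.

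In the mural class 3 values came from the 3 C57BL6 cells: 203.9 for Col4a1 (next line 133.4), 588.0 for Col4a2 (next 148.9) and 10.2 for Col4a4 (next 1.52), of whose reads 1 cell held 98.6%, 87% and 100%. In sub-epithelial fibroblasts Col4a3 was at 2.77 in C57BL6 (next 0.401) and Col4a4 at 2.03 in PdgfrbGFP (next 0.321), where 1 cell held most reads of each gene.

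Among the other fibroblast clusters 4 values came from Acta2GFP, with 7 to 11 cells each: 44.7 for Col4a4 in cluster 1 (next 4.35; 96.6% of the reads in 1 cell), 4.93 for Col4a3 and 8.21 for Col4a4 in cluster 7 (next 1.15 and 2.05; all reads of each gene in 1 cell), and 146.0 for Col18a1 in cluster 8 (next 63.2). PdgfrbGFP was high for Col4a3 in cluster 6, at 8.31 in 130 cells, 1 of which held 55.9% of the reads (next 0.0424), and for Col4a4 in cluster 2, at 2.92 (next 0.291). PdgfraGFP was high for Col4a6 in cluster 2, at 42.5, with 92.5% of the reads in 1 cell (next 2.99), and for Col15a1 in cluster 7, at 125.0 (next 65.5). C57BL6 was high for Col4a5 in cluster 8, at 159.7 in 18 cells (next 74.4). Of the 14 values, 8 belong to Col4a3 or Col4a4, the members with the fewest reads.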

How the results depend on the processing

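Col15a1 in mural cells against other fibroblasts kept its call under all 17 alternatives. The number of members called there was 1, and 2 with spike-in scaling (with Col4a3), 2 with DESeq2 (with Col4a3) and 4 with sums per plate and line (with Col4a3, Col4a4 and Col18a1), 1 in each fit without a line. In sub-epithelial against other fibroblasts it was 0, but 3 with DESeq2 and 2 with sums per plate and line. In mural against sub-epithelial it was 0, but 1 with spike-in scaling, 1 with limma on means over cells, 2 with sums per plate and line and 2 with no replicate block. Among other fibroblast clusters it was 0, but 1 (Col4a4) with median-of-ratios scaling, DESeq2, no filter, thinned cells, sums per plate and line and no replicate block, and 0 in each fit without a line. Of single clusters 1 was called, and 5 with DESeq2, 3 with thinned cells, 3 with sums per plate and line (chosen after seeing the data), and 0 to 1 without a line. Without the pairing by line (no replicate block), all-gene calls were 1349, 315, 1378 and 1072 instead of 1117, 163, 665 and 375, in the order above. They became 2323, 1124, 2011 and 899 with DESeq2 and 2379, 539, 1441 and 1114 with sums per plate and line. Leaving out a line gave 382 to 934, 54 to 119, 355 to 545 and 52 to 271, and fibroblasts with no mural cell in their row or column 373, 78 and 281 in the first 3. Calls were also 304 in the second with limma, 273 in the third with only the 2 classes, 219 in the fourth with thinned cells, and in cluster 8 282 with DESeq2 and 17 to 155 without a line, against 150.

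No called member reversed. Uncalled values that changed sign were, in mural against other fibroblasts, Col4a1 (0.17 with median-of-ratios scaling, 0.40 with the median gene at 0, 0.17 with DESeq2), Col4a2 (-0.17 with spike-in scaling) and Col4a6 (0.045 with the median gene at 0, 0.077 with sums per plate and line, 0.84 without neighboring mural wells). In sub-epithelial against other fibroblasts they were Col4a5 (-0.014 without neighboring wells) and Col4a6 (-0.34 to 1.96 without a line, lowest without C57BL6). In mural against sub-epithelial they were Col4a2 (0.34 with median-of-ratios scaling, 0.34 with DESeq2, 0.14 with only the 2 classes, 0.045 without clusters 4, 9 and 11, -0.44 to 0.18 without a line), Col4a3 (3.02 without neighboring wells, -1.52 to 0.37 without a line) and Col4a4 (-0.0030 with spike-in scaling, -0.50 with sums per plate and line, -1.21 to 3.11 without a line). The causes were not tested. The log2 ratio of Col4a1 to Col4a2 stayed negative, from -1.44 to -0.72. The fit of all clusters without neighboring mural wells could not be fitted, nor could Col4a3 and Col4a4 in mural against sub-epithelial with only the 2 classes. Col4a3 and Col4a4 had the fewest reads of the members, 4331 and 8453, and a mural line can rest on 3 cells. Leaving out a line for mean levels was chosen after seeing the data.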

Other observations

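Levels of the members in other fibroblasts were also set out by the number of mural cells in the same plate row or column, over 487 cells with 0, 636 with 1 to 4 and 155 with 5 or more, as means over cells that pool lines and plates. Col18a1, the member with the highest mural to fibroblast ratio of mean levels, was at 74.9, 73.2 and 77.2 in the 3 sets, and Col4a2 at 125 to 131. Col15a1 was at 103.2, 99.8 and 76.3, Col4a1 at 180.4, 159.9 and 163.5, and Col4a6 at 25.9, 30.9 and 10.8. Col4a3 was at 4.86, 5.31 and 13.7, and Col4a4 at 11.3, 13.6 and 22.8. The contractile gene Myh11 was at 1.68, 2.81 and 6.24. No test was run on these sets, whose plates and lines differ.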
